A study of Mus musculus with 5 samples.

Results

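The genes described here control passage through G1, the phase of the cell cycle before DNA synthesis, or respond to stress through p53. They are the CDK inhibitor genes Cdkn1a, Cdkn1b and Cdkn2c, the D-type cyclin genes Ccnd2 and Ccnd3, the kinase gene Cdk4, the GADD45 genes Gadd45a, Gadd45b and Gadd45g, and Trp53. Members were taken by gene name, as all probe sets that the array annotation assigns to 1 of these 10 genes and to no other. That gave 13 probe sets of 9 genes, of 12422 probe sets that were not controls and 8251 named genes. Trp53 is not analysed here. Of the 13 probe sets, 10 (8 genes) passed the filter on low signal, and 3 did not: both of Cdkn1b and 1 of Gadd45b.

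The RNA came from CD8 T cells of C57BL/6 mice with the OT-1 TCR transgene, whose receptor recognises an ovalbumin peptide, at an age of 6 to 8 weeks. CD44-low cells from lymph nodes were cultured on latex microspheres carrying the peptide-MHC complex and B7-1, which engages the costimulatory receptor CD28, and human IL-2 was in all 3 kinds of culture. The groups were 72 h of culture plus murine IL-21 (1 array), 48 h plus IL-21 (2 arrays) and 48 h lacking it (2 arrays), so the comparisons ask what IL-21 adds at 48 h and how cells kept with it differ a day later. No 72 h culture lacking IL-21 is analysed here, so whether a difference between 48 h and 72 h depends on IL-21 cannot be told. The labels speak of biological replicates but name no mice or cultures, so each p-value covers only the variation among these 5 arrays, whose number limits the precision. With a transgenic receptor these cells stand for 1 antigen specificity.

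D-type cyclins bind CDK4 and CDK6 and start the phosphorylation of the retinoblastoma protein, which releases E2F factors and the genes of DNA replication. Proteins of the CIP/KIP family, p21 from Cdkn1a and p27 from Cdkn1b, bind cyclin-CDK complexes, and p18 from Cdkn2c, an INK4 protein, binds CDK4 and CDK6 directly. In T cells, antigen and IL-2 bring resting cells with much p27 into cycle. The GADD45 proteins are small stress-induced proteins that bind p21, PCNA and CDK1, and that activate MAP3K4 upstream of the p38 and JNK kinases. Cdkn1a and Gadd45a are classic p53 targets, whereas Gadd45b and Gadd45g are known in T cells for induction by antigen and cytokines.

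Promoter sequence is shown for the genes on which the results turn: Cdkn1a and Cdk4, which had the smallest p among the members in the 2 comparisons, and the GADD45 family, whose levels are set side by side. The letters are the 250 bases before the RefSeq transcript start (GRCm38.p6), 5′ to 3′ on the gene's strand, with motif matches on either strand in capitals. The motifs searched were the E-box CACGTG, the TATA box TATAAA, the p53 decamer consensus, the CCAAT box and the STAT palindrome TTCNNNGAA, and no match overlapped another in the windows shown.
Cdkn1a, chr17:29090729-29090978, plus strand: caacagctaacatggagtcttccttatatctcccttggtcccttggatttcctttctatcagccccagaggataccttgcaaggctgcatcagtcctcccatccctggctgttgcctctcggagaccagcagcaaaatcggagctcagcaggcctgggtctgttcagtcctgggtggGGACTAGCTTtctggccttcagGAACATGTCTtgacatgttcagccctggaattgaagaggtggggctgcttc
Cdk4, chr10:127063285-127063534, plus strand: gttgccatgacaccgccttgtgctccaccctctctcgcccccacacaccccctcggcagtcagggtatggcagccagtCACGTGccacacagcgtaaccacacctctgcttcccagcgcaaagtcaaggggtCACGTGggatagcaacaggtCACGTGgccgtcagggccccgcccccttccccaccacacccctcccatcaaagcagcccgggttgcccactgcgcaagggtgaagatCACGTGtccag
Gadd45a, chr6:67037408-67037657, minus strand: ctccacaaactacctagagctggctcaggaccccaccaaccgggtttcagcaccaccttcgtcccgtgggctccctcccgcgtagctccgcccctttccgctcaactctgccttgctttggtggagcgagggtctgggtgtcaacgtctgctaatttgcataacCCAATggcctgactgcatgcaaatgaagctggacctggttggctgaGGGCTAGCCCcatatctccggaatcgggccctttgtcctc
Gadd45b, chr10:80929841-80930090, plus strand: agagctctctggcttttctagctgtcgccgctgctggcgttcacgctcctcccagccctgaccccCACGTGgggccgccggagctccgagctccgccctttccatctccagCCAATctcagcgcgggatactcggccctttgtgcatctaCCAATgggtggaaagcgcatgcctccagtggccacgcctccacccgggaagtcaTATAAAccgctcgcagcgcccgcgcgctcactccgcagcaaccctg
Gadd45g, chr13:51846425-51846674, plus strand: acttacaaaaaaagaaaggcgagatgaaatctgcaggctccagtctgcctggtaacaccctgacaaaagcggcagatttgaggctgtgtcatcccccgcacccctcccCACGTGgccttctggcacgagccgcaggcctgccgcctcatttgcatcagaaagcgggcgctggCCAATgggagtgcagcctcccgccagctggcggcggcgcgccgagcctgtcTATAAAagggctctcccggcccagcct

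The Cdkn1a window held 2 matches to the p53 decamer, and the window of its other RefSeq start, chr17:29093519-29093768, held none. The Gadd45a window held 1 such match and 1 CCAAT. Of 32851 promoters of the same length, 7.13% held the decamer and 0.259% held 2 or more. The Cdk4 window held 4 copies of CACGTG, the sequence bound by MYC-MAX and related dimers. At least 1 copy stood in 6.02% of promoters and at least 4 in 0.0213%, which is 7 promoters. Gadd45b and Gadd45g each held 1 CACGTG and 1 TATAAA (12.4% of promoters), with 2 and 1 CCAAT (33.8%). TTCNNNGAA, present in 7.02% of promoters, was not among the letters of any member's window. These matches describe the letters only. Entries were found for 9 of the 10 genes. Ccnd2 had none.

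All values below are MAS5 signals of a probe set after an offset of 1.53 was added and the arrays were quantile normalised, so a level is read against the other probe sets of its array and contains the offset. Apart from the summed marker signals below, levels are compared between arrays and not between probe sets. As deposited, the trimmed mean signal was 65.9 on the 72 h array, 105 and 106 on the 48 h arrays with IL-21, and 75.4 and 65.3 on those without. The 3′ to 5′ signal ratios of the actin and Gapdh control probe sets, a sign of RNA quality, ran from 0.796 to 1.03. The labelled cell type had its markers: all 8 CD8 T cell markers on the array passed the filter, and 5 were higher and 3 lower at 72 h than at 48 h with IL-21. Cd8a, the defining marker, read 506 at 72 h, 690 and 753 at 48 h with IL-21, and 414 and 401 without, and its difference at 72 h did not pass (-0.51, limma adjusted p = 0.088). Cd247 (-0.33) and Cd2 (-0.18) were also lower without passing. Cd3g (1.78), Cd3d (1.40) and Thy1 (0.58) were called higher at 72 h (log2 differences, limma adjusted p of 0.0342 or less), a call made in 13, 12 and 7 of their 16 fits. That no marker of another cell type was at 0 on any array does not show detection, which was not tested. Lyz2 (1.81 to 2.99) and Cd40lg (1.85 to 3.10) were among those near the offset of 1.53. Over the 7 B cell markers on the array the summed signal was 984 at 72 h, 682 and 497 at 48 h with IL-21 and 671 and 401 without. Most of each sum was 1 probe set, that of Ighm, at 868, 560 and 400, and 560 and 295. Of the 5 B cell markers that passed the filter, 3 were higher and 2 lower at 72 h than at 48 h with IL-21. The 10 myeloid and dendritic cell markers summed, in that order, to 336, 257 and 207, and 257 and 276, and of the 6 that passed the filter 3 were higher and 3 lower at 72 h. Of these 6, H2-Ab1 was called (log2 difference 1.24, SE 0.23, limma adjusted p = 0.0256, called in 8 of 16 fits), and Cd14 (-0.61), Csf1r (-0.80) and H2-Eb1 (-0.78) were lower without passing. The 3 NK cell markers summed to 272, 37.3 and 91.4, and 42.8 and 62.9, and the 1 that passed the filter was Klrc1, which activated CD8 T cells also express. The sums of the 4 CD4 and regulatory T cell markers (39.4 to 76.4) and 5 erythroid and stromal markers (227 to 332) were also highest on the 72 h array. So was that of the 8 CD8 T cell markers, at 8033 at 72 h, 5313 and 5609 at 48 h with IL-21, and 5206 and 5091 without. In the erythroid and stromal sum, 1 probe set, that of Col1a2, gave 213 at 72 h. Of these 5 markers 4 were higher at 72 h than at 48 h with IL-21, and 1 was lower, Hba-a1 (6.33 at 72 h). The part of other cell types in the results at 72 h was not tested. In RNA of a whole culture, fewer cells of a type and less RNA per cell cannot be told apart.

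No member probe set passed the limma test in either comparison. At 48 h, IL-21 against none called 0 of 10 member probe sets and 0% of the 7453 probe sets tested (smallest adjusted p = 0.465). At an unadjusted p under 0.05 3 of the 10 passed (Cdkn1a, Ccnd2 and a Cdk4 probe set), where 4.39% of all probe sets did (2.55% higher and 1.84% lower with IL-21). The same 3 were those whose 48 h groups did not overlap, 1 higher with IL-21 and 2 lower, against 33.8% of all probe sets (15.9% higher and 17.9% lower). The median difference of the 10 was -0.04 and that of all probe sets -0.01.

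With IL-21, 72 h against 48 h called 0 of 10 member probe sets, against 11.2% of all (832 probe sets, 4.04% higher and 7.12% lower). That background count itself rests on the arrays used: it was 0 without either of the 48 h IL-21 arrays (1703 and 1748 probe sets at an unadjusted p under 0.05), and 465 and 432 without the first and the second array lacking IL-21. With all 5 arrays, an unadjusted p under 0.05 was reached by 1 of the 10 (Cdk4, 160538_at), against 2032 of the 7453 probe sets tested. The 72 h array lay outside both 48 h arrays for 7 of the 10, against 78.6% of all. It was above both for 5 and below both for 2, against 37.5% and 41.2%. The median difference of the 10 was 0.25 and that of all probe sets -0.01. Both comparisons use the 48 h IL-21 arrays, so the signs of a member in the 2 are not independent.

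**Figure D1:**
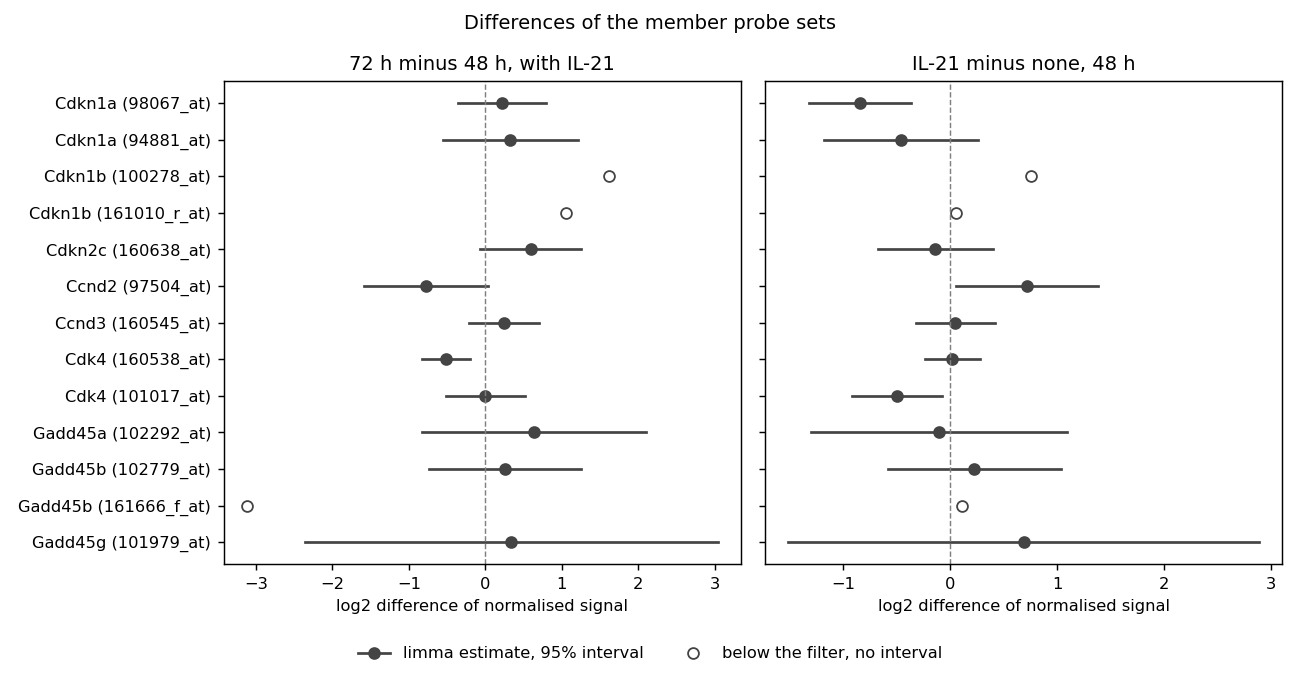
Log2 difference of normalised signal for the 13 probe sets, 72 h minus 48 h with IL-21 on the left and IL-21 minus none at 48 h on the right. Filled points are limma estimates with 95% intervals, and open points are the 3 probe sets below the filter. The intervals of Cdkn1a (98067_at), Ccnd2 and Cdk4 (101017_at) leave out 0 at 48 h and that of Cdk4 (160538_at) at 72 h, before adjustment.

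Among the CDK inhibitors, Cdkn1a was the member whose signal differed most clearly with IL-21. Its probe set 98067_at read 160 at 72 h, 144 and 131 at 48 h with IL-21, and 215 and 284 at 48 h without. Both 48 h arrays with IL-21 lay below both without, and the 72 h array stood just above those with IL-21. The IL-21 difference at 48 h was -0.84 on the log2 scale (SE 0.19, 95% interval -1.32 to -0.37), or 1.79-fold lower with IL-21, and its unadjusted p of 0.0047 became 0.967 after adjustment. It was below 0 under all 5 scalings between arrays (-1.29 to -0.29), and passed with arrays scaled on the hybridisation control transcripts (limma adjusted p = 0.0141, and 0.0141 to 0.999 over its 17 fits). Under that scaling the median of all probe sets was itself -0.43, so the pass includes a shift of the whole array. From 48 h to 72 h with IL-21 the difference was 0.22 (SE 0.24, interval -0.36 to 0.80, limma adjusted p = 0.62).

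The second Cdkn1a probe set, 94881_at, gave a looser picture. It read 175 at 72 h, 109 and 179 at 48 h with IL-21, and 161 and 230 at 48 h without. The 48 h groups overlapped, and the 2 arrays with IL-21 differed more from each other than the group means did. The IL-21 difference was -0.46 (SE 0.30, interval -1.18 to 0.26), it was 0.13 in the unscaled values, and it ran from -0.81 to -0.10 with an array left out. The difference at 72 h was 0.33 (SE 0.36, limma adjusted p = 0.625).

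Cdkn1b, which encodes p27, was dim: neither probe set reached the filter level of 12.98 on average. Probe set 100278_at read 23.6 at 72 h, 4.45 and 13.3 at 48 h with IL-21, and 4.81 and 4.33 without. Probe set 161010_r_at read 13.1 at 72 h, 6.36 and 6.23 at 48 h with IL-21, and 7.61 and 4.80 without. On both, the 72 h array was above each of the 4 others, by 1.61 and 1.05 on the log2 scale against the 48 h IL-21 mean. Fitted without the filter, these 72 h differences had limma adjusted p = 0.324 and 0.380, and detection was not tested at such signals.

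Cdkn2c, which encodes the INK4 protein p18, read 116 at 72 h, 85.4 and 69.5 at 48 h with IL-21, and 95.9 and 74.9 without. The 48 h groups overlapped, and the 72 h array was above the other 4. The difference at 72 h was 0.59 (SE 0.27, interval -0.07 to 1.25, limma adjusted p = 0.223), and in the unscaled values it was -0.04. The IL-21 difference at 48 h was -0.14 (SE 0.22, interval -0.68 to 0.40).

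Ccnd2, a D-type cyclin that partners Cdk4 and Cdk6 in activated lymphocytes, had its highest signals at 48 h with IL-21. It read 314 at 72 h, 517 and 559 at 48 h with IL-21, and 434 and 246 at 48 h without. The IL-21 arrays at 48 h lay above the other 3, while the 72 h array lay inside the range of the arrays without IL-21. The IL-21 difference at 48 h was 0.72 (SE 0.27, interval 0.06 to 1.38, unadjusted p = 0.0374, limma adjusted p = 0.967), and it was 0.31 without the second array lacking IL-21 and 1.14 without the first. At 72 h the difference was -0.78 (SE 0.33, interval -1.58 to 0.03, limma adjusted p = 0.198), 1.71-fold lower than at 48 h.

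Ccnd3, also a D-type cyclin, had the lowest SD over the 5 arrays of the 10 probe sets kept (0.17 on the log2 scale). It read 569 at 72 h, 533 and 432 at 48 h with IL-21, and 483 and 445 without, with all 5 arrays close together. The IL-21 difference was 0.05 (SE 0.15, interval -0.32 to 0.42), or 1.03-fold with an interval from 0.799 to 1.34. The difference at 72 h was 0.24 (SE 0.19, limma adjusted p = 0.464).

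Cdk4, the kinase partner of the D-type cyclins, had 2 probe sets that differed in pattern. The first, 160538_at, read 760 at 72 h, 1054 and 1122 at 48 h with IL-21, and 1092 and 1054 without. The 4 arrays at 48 h stood together and the 72 h array lay below them all. The difference at 72 h was -0.52 (SE 0.13, interval -0.83 to -0.20), the smallest adjusted p of any member (limma adjusted p = 0.0564), and it was negative under all 5 scalings, between -1.22 and -0.31. Over the 16 fits of that comparison its adjusted p ran from 0.0025 to 0.61. The IL-21 difference at 48 h was 0.02 (SE 0.11, interval -0.24 to 0.28).

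Probe set 101017_at, also named Cdk4, read 146 at 72 h, 151 and 141 at 48 h with IL-21, and 188 and 226 at 48 h without. Here the 3 arrays with IL-21 stood together below the 2 without. The IL-21 difference was -0.50 (SE 0.17, interval -0.92 to -0.08, unadjusted p = 0.0276, limma adjusted p = 0.967), and the difference at 72 h was 0.00 (SE 0.21). The 2 probe sets thus disagreed in both comparisons. Which of them reports the gene was not tested.

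**Figure D2:**
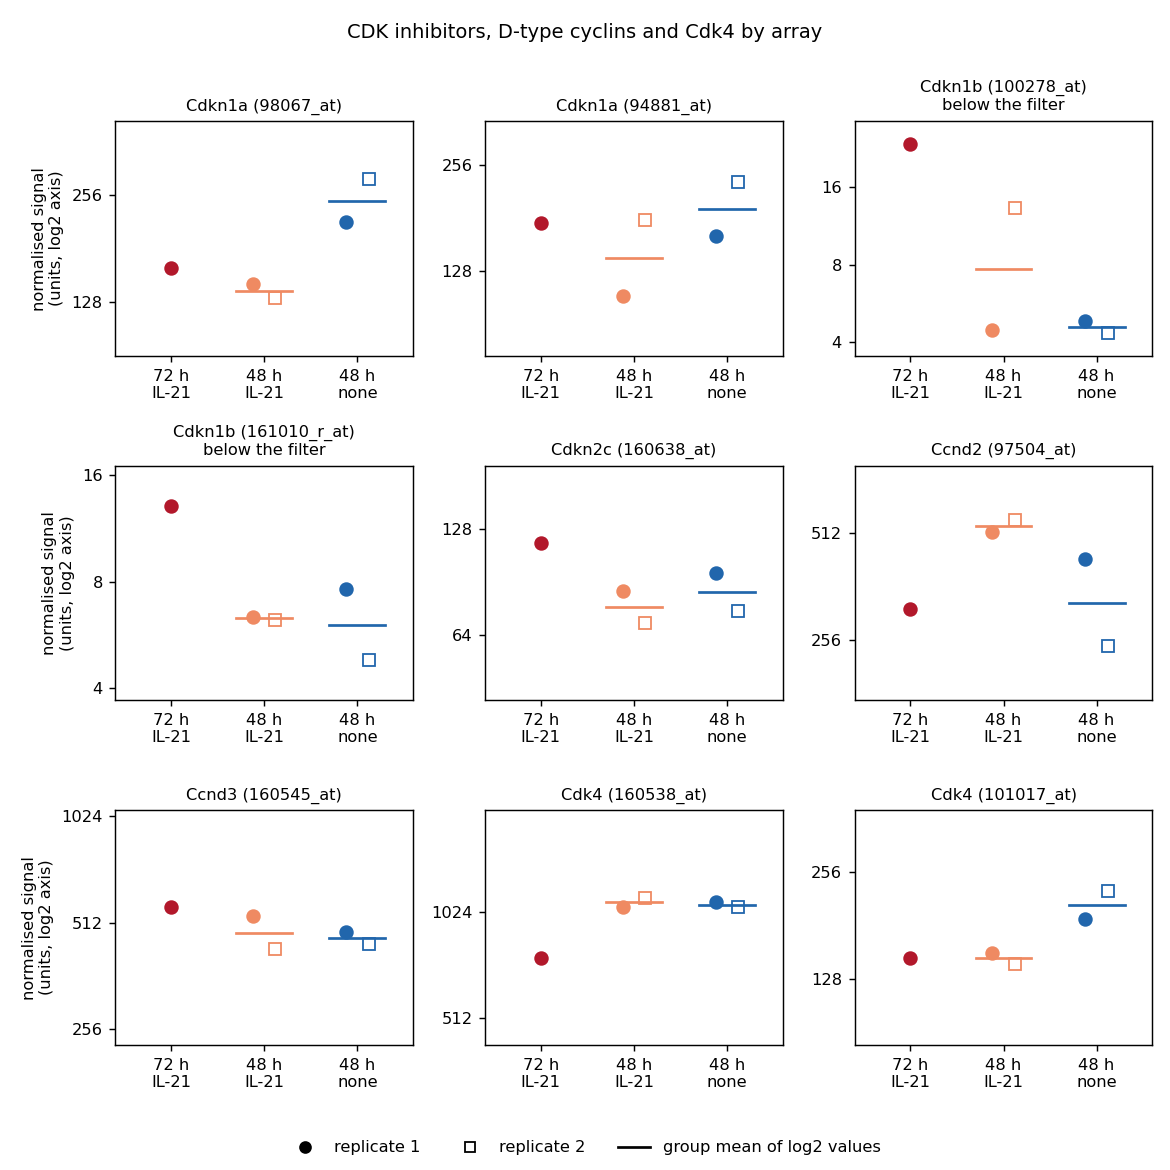
Normalised signal (log2 axis) of the probe sets of the CDK inhibitors, D-type cyclins and Cdk4 on each array, with 72 h IL-21, 48 h IL-21 and 48 h without IL-21 from left to right. Circles are replicate 1, squares replicate 2, and lines the mean log2 value of the 48 h groups. Cdkn1a (98067_at) reads 144 and 131 with IL-21 at 48 h and 215 and 284 without, and Cdk4 (160538_at) reads 760 at 72 h and 1054 or more on the other arrays.

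At 48 h the GADD45 probe sets differed more between replicates than between group means. Gadd45g read 110 at 72 h, 39.6 and 192 at 48 h with IL-21, and 26.6 and 110 at 48 h without. Replicate 2 exceeded replicate 1 by 4.85-fold with IL-21 and by 4.13-fold without, and the groups overlapped. The SD over the 5 arrays was 1.18 on the log2 scale, the highest of the 10 member probe sets kept. The IL-21 difference at 48 h was 0.69 with an interval from -1.51 to 2.89 (SE 0.90), and that at 72 h 0.34 (SE 1.10, limma adjusted p = 0.881). Without the first and without the second 48 h IL-21 array the difference at 72 h was -0.81 and 1.45.

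Gadd45a showed the same split between replicates. It read 23.6 at 72 h, 10.9 and 20.98 at 48 h with IL-21, and 12.4 and 21.5 at 48 h without. Replicate 2 exceeded replicate 1 by 1.92-fold with IL-21 and by 1.74-fold without, and the 72 h array, labelled replicate 1, stood above all 4. Both replicate 1 values at 48 h were under the filter level of 12.98, which the probe set passed by its mean. The IL-21 difference was -0.11 (SE 0.49, interval -1.30 to 1.09) and that at 72 h 0.64 (SE 0.60, interval -0.83 to 2.10, limma adjusted p = 0.556), the second running from 0.17 to 1.10 with an array left out.

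Gadd45b had 2 probe sets with opposite directions at 72 h. Probe set 102779_at read 32.3 at 72 h, 23.5 and 30.97 at 48 h with IL-21, and 19.1 and 27.9 at 48 h without. Again both second replicates were higher, by 1.32-fold with IL-21 and 1.46-fold without. Its differences were 0.23 at 48 h (SE 0.33, interval -0.58 to 1.04) and 0.26 at 72 h (SE 0.41, limma adjusted p = 0.736, 0.06 to 0.45 with an array left out). Probe set 161666_f_at, below the filter, read 2.17 at 72 h, 21.1 and 16.8 at 48 h with IL-21, and 25.2 and 12.0 without. That is -3.11 on the log2 scale at 72 h, where the signal was near the offset, and its limma adjusted p was 0.0538 without the filter. The 2 probe sets cannot be read as 1 gene's level.

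**Figure D3:**
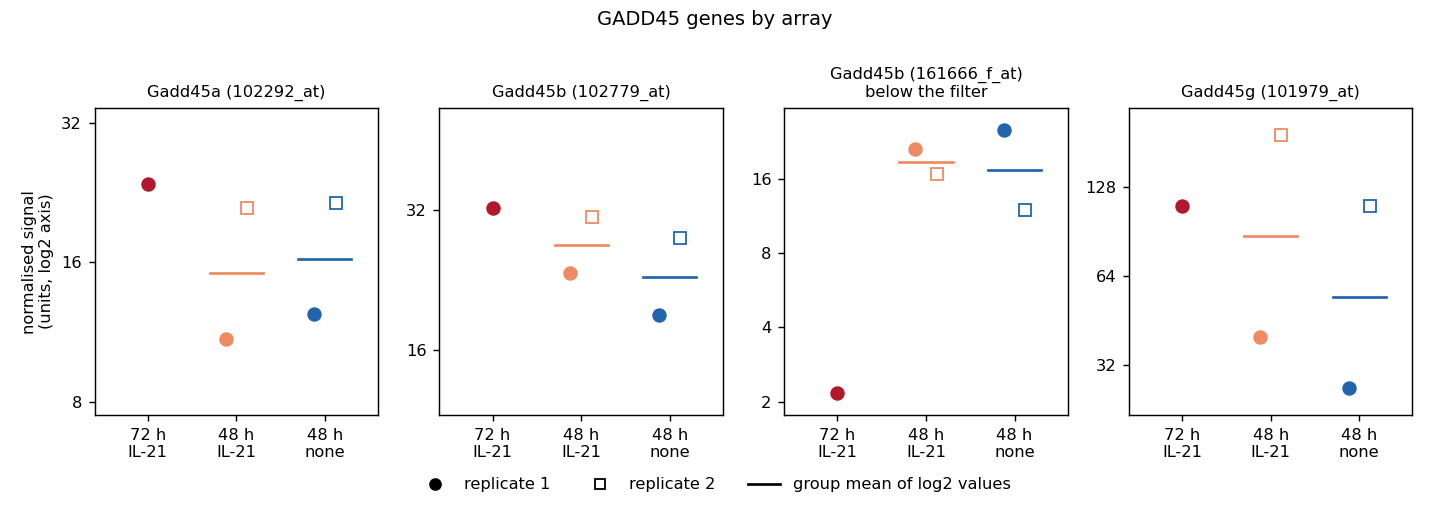
Normalised signal (log2 axis) of the 4 GADD45 probe sets on each array, with 72 h IL-21, 48 h IL-21 and 48 h without IL-21 from left to right. Circles are replicate 1, squares replicate 2, and lines the mean log2 value of the 48 h groups. In Gadd45a, Gadd45b (102779_at) and Gadd45g the square lies above the circle in both 48 h groups, for Gadd45g at 192 over 39.6 and 110 over 26.6.

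The direction of several members depended on how arrays were scaled. Relative to quantile normalisation, the median of all probe sets moved to 0.57 at 48 h and -0.58 at 72 h in the values as deposited, and to -0.43 and 0.33 when arrays were scaled on the 9 hybridisation control probe sets. Centring arrays on their medians moved it to 0.04 and -0.17. These 3 settings differ by 1 constant per array, so the distance of a member from that median is the same in each by construction.

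**Figure D4:**
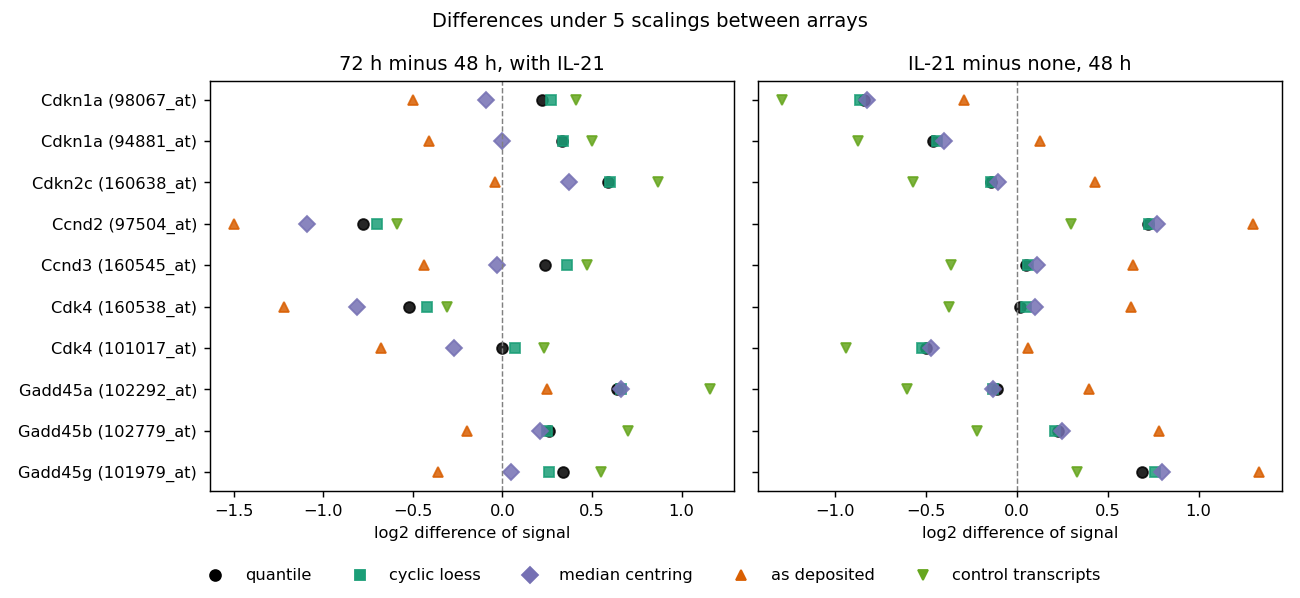
Log2 difference of the 10 member probe sets that passed the filter under 5 scalings between arrays, 72 h minus 48 h with IL-21 on the left and IL-21 minus none at 48 h on the right. For Cdkn1a (98067_at) at 48 h all 5 points lie between -1.29 and -0.29, and for Cdk4 (160538_at) at 72 h between -1.22 and -0.31. In each panel 7 of the 10 probe sets have points on both sides of 0.

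The pathway around these genes was read from 6 lists, each gene by its probe set with the highest signal. At 48 h the limma test called 0 genes of the 6 lists in IL-21 against none. Of 19 other G1 and S phase cyclins, CDKs and inhibitors, 7 were higher and 12 lower (median -0.06, all probe sets -0.01). The 4 with the smallest p were Ccng2 (149 with IL-21 and 253 without, difference -0.76, SE 0.18), the S phase cyclin Ccna2 (459 with IL-21, 588 without, -0.36, SE 0.13), the p53 target Ccng1 (114 with IL-21, 159 without, -0.48, SE 0.18) and the CDK-binding Cks2 (688 with IL-21, 777 without, -0.18, SE 0.11), all with limma adjusted p = 0.967.

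Of 22 p53 regulators and targets, 12 were higher and 10 lower with IL-21 at 48 h (median 0.00). The kinase gene Atm read 115 with IL-21 and 73.1 without (0.65, SE 0.20). The ribonucleotide reductase subunit gene Rrm2b (22.2 and 7.11 with IL-21, 35.1 and 32.0 without, -1.41, SE 0.57) and the p53-induced gene Ei24 (303 with IL-21, 405 without, -0.42, SE 0.19) were on the other side, beside Ccng1, and none passed. The second IL-21 value of Rrm2b is under the filter level, and its difference ran from -2.21 to -0.58 over 16 fits. Of 12 RB and E2F family genes, 6 were higher and 6 lower (median 0.00), with Tfdp1, the DP1 partner of E2F factors, at 804 with IL-21 and 544 without (0.56, SE 0.13). Other Tfdp1 probe sets had -0.23 and 0.27. In the same list Rbbp4 had -0.19, Rb1 -0.31 and E2f3 -0.56. The second IL-21 value of E2f3, 11.1, is also under the filter level.

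The p38 and JNK list of 11 held kinases and targets of these pathways, on which GADD45 proteins act, and Cdk1, which they bind. With IL-21 at 48 h 9 were higher and 2 lower (median 0.19). The 2 were Map3k4 (-0.31), the kinase that GADD45 proteins bind, and Map2k6 (-0.33), and in both the 48 h groups overlapped. Map2k6 read 9.50 and 11.8 with IL-21 and 11.3 and 15.8 without, close to the filter level of 12.98. The 4 with the smallest p were Map2k4 (84.1 with IL-21, 59.2 without, 0.51, SE 0.21), Cdk1 (0.19), Map2k3 (0.21) and Mapk14 (0.27). Of 10 quiescence-associated and FOXO genes, 3 were higher and 7 lower (median -0.15), with Foxo3 at -0.37, Foxp1 at 0.31, Foxo4 at 0.29 and Mxd4 at -0.42. Of 21 E2F-driven replication genes, 15 were higher and 6 lower (median 0.09). They included the primase gene Prim1 (74.7 with IL-21, 43.7 without, 0.77, SE 0.23), the replication licensing inhibitor Gmnn (192 with IL-21, 139 without, 0.46, SE 0.16), the sliding clamp Pcna (1355 with IL-21, 1002 without, 0.44, SE 0.17) and Rrm2 (0.29). None of these passed (limma adjusted p of 0.967 or more). The splits moved with the scaling: 3 of the 21 replication genes and 1 of the 11 in the p38 and JNK list were higher with control-transcript scaling. In the values as deposited all 21 and all 11 were higher, and 9 and 3 were called. Without the second 48 h IL-21 array the list medians were 0.02 and 0.05, and without the first array lacking IL-21 that of the p38 and JNK list was 0.07.

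At 72 h against 48 h with IL-21, the list with the most calls was that of the E2F-driven replication genes. All 21 had a lower signal, and 5 fell (limma adjusted p under 0.05), with a median of -0.58 against -0.01 for all probe sets and 7.12% of them called lower. Mcm2, a subunit of the replicative helicase, fell to 222 at 72 h, against 482 on both 48 h arrays with IL-21 (-1.12, SE 0.16, limma adjusted p = 0.0149). Orc6 of the origin recognition complex (242 at 72 h, 411 at 48 h, -0.76), the helicase subunit Mcm5 (664 at 72 h, 1164 at 48 h, -0.81), the clamp loader subunit Rfc5 (201 at 72 h, 355 at 48 h, -0.82) and Mcm3 also fell, with limma adjusted p between 0.0347 and 0.0390. Another Rfc5 probe set had 0.73. With control-transcript scaling 18 of 21 were lower, none called, with a median of -0.40 against 0.33 for all probe sets, and with cyclic loess 20 of 21. Without the second 48 h IL-21 array 19 of 21 were lower.

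Of the 19 other G1 and S phase genes, 1 rose, 1 fell and 17 did not pass at 72 h (median -0.08, with 4.04% of all probe sets called higher and 7.12% lower). Ccng2, a cyclin linked to growth arrest, read 537 at 72 h, against 162 and 138 at 48 h with IL-21 (1.84, SE 0.22, limma adjusted p = 0.0108), and its difference was positive under all 5 scalings (1.16 to 2.07). Cdc25a, the phosphatase that activates CDK2, fell to 83.6, against 155 and 202 (-1.08, SE 0.24, limma adjusted p = 0.0415). Cul1 (-0.63) and Cks1b (-0.44), both of the SCF ubiquitin ligase system that degrades p27, did not pass.

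Of 10 quiescence-associated and FOXO genes, 2 rose and 8 did not pass (median 0.49, 4.04% of all probe sets called higher). Mxd4, a MAX-binding antagonist of MYC, read 195 at 72 h, against 16.2 and 11.4 at 48 h (3.85, SE 0.41, limma adjusted p = 0.0098), the lower values being close to the filter level. Txnip, the thioredoxin-binding inhibitor of glucose uptake, read 200 at 72 h, against 71.1 and 99.4 at 48 h (1.25, SE 0.27, limma adjusted p = 0.0392), but another of its probe sets had -0.26. The antiproliferative Tob1 (103 at 72 h, 42.0 at 48 h, 1.30, limma adjusted p = 0.0513) and Mxi1 (201 at 72 h, 92.7 at 48 h, 1.12, limma adjusted p = 0.0544) just missed the threshold.

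Of 22 p53 regulators and targets, 2 rose and 20 did not pass, with 11 higher and 11 lower (median -0.05), where 4.04% of all probe sets were called higher and 7.12% lower. Btg2, an antiproliferative p53 target, read 593 at 72 h, against 278 and 281 at 48 h (1.09, SE 0.19, limma adjusted p = 0.0242). Sesn1, a sestrin that restrains mTORC1, read 167, against 69.8 and 81.4 (1.14, SE 0.23, limma adjusted p = 0.0342). The mitotic Gtse1 (-1.08, limma adjusted p = 0.056) and the checkpoint kinase gene Chek1 (-0.68) did not pass, nor did either probe set of Cdkn1a.

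Of 12 RB and E2F family genes, 1 fell and 11 did not pass (median -0.24, 7.12% of all probe sets called lower). Tfdp1 read 443 at 72 h, against 815 and 792 at 48 h (-0.86, SE 0.16, limma adjusted p = 0.0254), and its other probe sets had -0.64 and -0.90. Hdac2 (-1.28), Rbbp7 (-0.36) and Rb1 (0.72) did not pass. No gene of the 11 in the p38 and JNK list passed by the probe set that stands for it (median -0.26). Atf2 had -0.82 (limma adjusted p = 0.0921), Mapk8 -0.84, Map2k3 -0.55 and Cdk1 -0.38, and another Map2k3 probe set passed at -1.15 (limma adjusted p = 0.0202).

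These calls at 72 h share the limit of the background count: with either 48 h IL-21 array left out, 0 genes of the 6 lists were called. With all 5 arrays but no variance trend, 0 genes of the 6 lists were called as well. Of the 16 fits of that comparison, Ccng2 was called in 13, Mcm2 and Tfdp1 in 12, Btg2 in 11 and Orc6 in 9. Rfc5 was called in 8, Cdc25a, Sesn1 and Txnip in 7, Mcm5 in 6, and Mxd4 in 12 of 15. The direction of Ccng2, Mxd4, Btg2, Sesn1, Txnip, Mcm2, Orc6, Mcm5, Rfc5, Tfdp1 and Cdc25a at 72 h was the same under all 5 scalings.

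**Figure D5:**
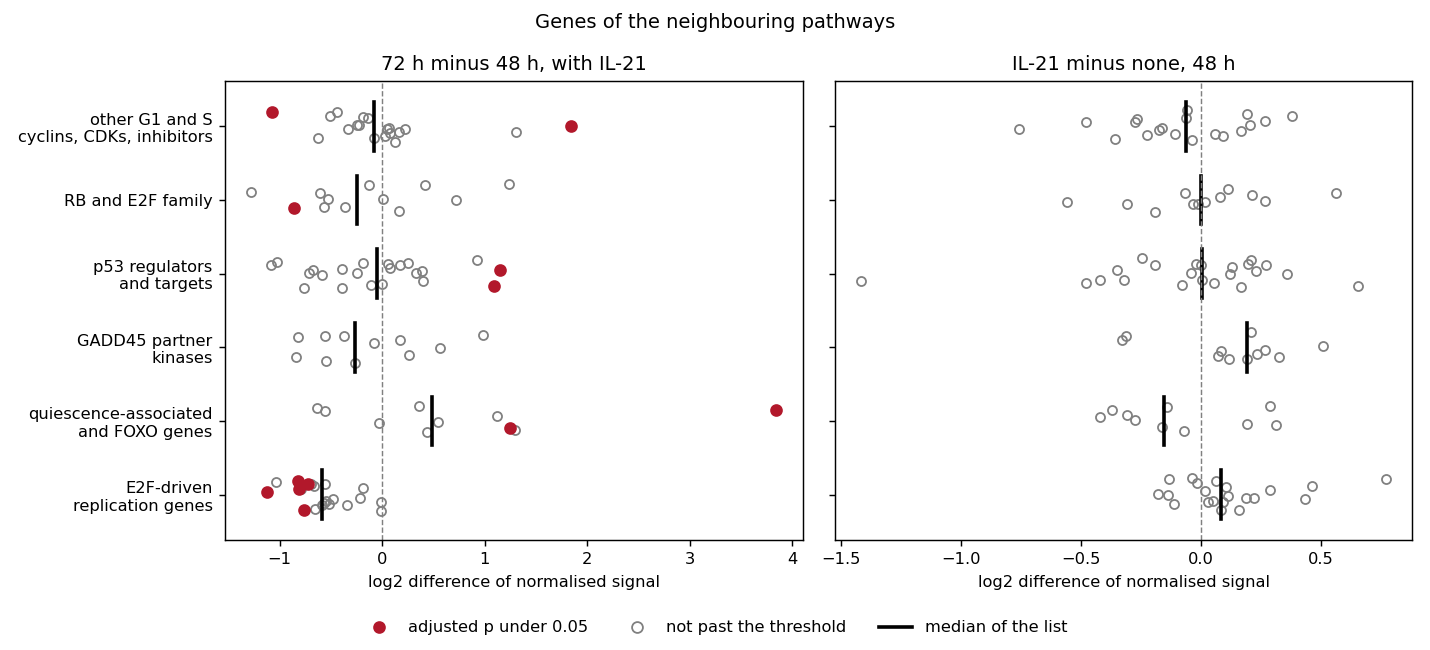
Log2 difference of each gene of the 6 pathway lists (1 point per gene, probe set with the highest signal), 72 h minus 48 h with IL-21 on the left and IL-21 minus none at 48 h on the right. Red points have an adjusted p under 0.05 and black lines are list medians. All 21 replication genes lie below 0 at 72 h with a median of -0.58, and no point is red at 48 h.

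Among the 10 probe sets kept by the filter, Gadd45g, Gadd45a and Ccnd2 varied most over the 5 arrays. For these 3, the named genes with the nearest profile were found by the Euclidean distance between mean-centred log2 values. Nearest to Gadd45g were 2810025M15Rik (distance 0.54), Emp1 (0.64) and the chromatin organiser Satb1 (0.70). Satb1 read 739 at 72 h, 238 and 865 at 48 h with IL-21, and 224 and 847 without. Nearest to Gadd45a were the cytokine gene Flt3l (0.15), the stress-response factor gene Atf6 (0.19) and 1110051M20Rik (0.24), and Flt3l read 21.8 and 45.2 with IL-21 at 48 h and 25.5 and 47.3 without. Nearest to Ccnd2 were the nuclear import receptor gene Tnpo3 (0.25), C77080 (0.28) and Nudt3 (0.31). With 5 arrays and 7453 probe sets, near profiles are a description.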

How the data were processed

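Total RNA was labelled as biotin cRNA and read on 5 Affymetrix mouse arrays. Per the submitters' processing notes the deposited intensity values are MAS5 signals on a linear scale. Neither version nor scaling target is given in the sources used here. Columns differ in trimmed mean, so arrays carry no common scale. Genes were named from the platform annotation, with 10817 of 10833 singly named probe sets matched to RefSeq by Entrez identifier, and probe sets with several names (396) or none (1193) were given no name.

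Before log2, 1.53 was added to each value (their 10th percentile), which understates differences of dim probe sets. Arrays were quantile normalised, and probe sets with a mean log2 value above the 40th percentile were kept (7453). limma 3.58.1 in R 4.3.3 fitted 3 group means to 5 arrays (2 residual degrees of freedom, variance trend, two-sided, Benjamini-Hochberg over 7453, threshold 0.05). The lone 72 h array is assumed to vary like the 48 h groups. On simulated data the fit was checked for recovery of the mean log2 difference that had been added, and its calls were not checked. The simulation shuffled the SDs over probe sets, so it held no variance trend. Alternatives were the offset, the scaling, the filter, the variance trend, the replicate number, the arrays left out and the groups fitted.

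The members, lists and tests were chosen with earlier results of these data known. Members are named in full. List genes stand by the probe set of highest mean, up to 4 per list and comparison are named by smallest p, and others named (Mcm3, Map3k4, Map2k6 and the cell type markers) were chosen after their values were seen.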

Additional observations from a re-analysis of the deposited data

How the results depend on the processing

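The count of probe sets called at 48 h was 0 with the main settings, 696 in the unscaled values (all higher with IL-21), 44 with control-transcript scaling (2 higher, 42 lower) and 11 with a replicate block, and it was 0 whichever array was left out. Of the members, 2 were then called in the unscaled values (Ccnd2 1.30, Cdk4 0.63 for 160538_at) and 1 with control-transcript scaling (Cdkn1a -1.29). At 72 h the count of 832 became 2128 unscaled (101 higher, 2027 lower), 1860 with the block (860 higher, 1000 lower), 425 with only the 2 groups compared and 0 without the variance trend (1843 at an unadjusted p under 0.05), and ran from 0 to 465 with an array left out. Member calls at 72 h were 2 unscaled (Ccnd2 -1.50, Cdk4 -1.22), 1 with the stricter filter (Cdk4, limma adjusted p = 0.0477, range over its fits 0.0025 to 0.61) and 4 with the block. With the replicate number as a block these were Cdkn1a (94881_at, 0.63), Ccnd2 (-0.95), Cdk4 (160538_at, -0.51) and Gadd45g (1.42). The labels tie the numbers to no day or mouse, there are 2 pairs, and replicate 2 minus replicate 1 correlated between the 48 h groups at r = 0.36 across 7453 probe sets. Member counts were 0 with each array left out.

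Signs of uncalled member differences turned as follows. At 48 h, unscaled values gave 0.13 for Cdkn1a (94881_at), 0.43 for Cdkn2c, 0.06 for Cdk4 (101017_at) and 0.40 for Gadd45a, and control-transcript scaling gave -0.36 for Ccnd3, -0.37 for Cdk4 (160538_at) and -0.22 for Gadd45b. At 72 h, unscaled values gave -0.50 and -0.41 for Cdkn1a (98067_at, 94881_at), -0.04 for Cdkn2c, -0.44 for Ccnd3, -0.68 for Cdk4 (101017_at), -0.20 for Gadd45b and -0.36 for Gadd45g. Median centring gave -0.09 and 0.00 for Cdkn1a, -0.03 for Ccnd3 and -0.27 for Cdk4 (101017_at). With an array left out, the 48 h differences ran from -0.11 to 0.21 for Ccnd3, -0.57 to 0.36 for Gadd45a, -0.31 to 0.04 for Cdkn2c, -0.02 to 0.06 for Cdk4 (160538_at), -0.44 to 1.84 for Gadd45g and -0.05 to 0.50 for Gadd45b, and those at 72 h from -0.03 to 0.67 for Cdkn1a (94881_at), -0.81 to 1.45 for Gadd45g and -0.05 to 0.05 for Cdk4 (101017_at). The other 264 member differences kept their direction and side of the threshold. Each scaling also shifted the median of all probe sets, and the cause was otherwise not tested. MAS5 signals near background, as in Cdkn1b, 161666_f_at and some arrays of Gadd45a, limit what can be said of those probe sets.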
